A study of Rattus norvegicus with 46 samples.

Results

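The genes described here were grouped as genes of the secretory cells of the conducting airway, though Muc20 was also counted in blood. They were measured by RNA sequencing in the lungs of rats that had inhaled crystalline silica or filtered air. They are the 10 genes Muc5b, Muc5ac, Muc20, Clca1, Bpifb1, Bpifa1, Spdef, Agr2, Scgb1a1 and Scgb3a1, taken by name from the 30045 genes of the lung tables. All animals were male Fischer 344 rats, an inbred strain, described as aged in the study's title, with no age given in the sample labels. In whole-body chambers, over 5 days with 6 hours of exposure each, the silica groups breathed 15 mg/m3 of Min-U-Sil 5, a respirable quartz dust, and the air groups filtered air. Lung and blood were taken 1 day or 6 months afterwards. The 22 lung samples are 6 silica and 6 air samples at 1 day, and 6 silica and 4 air samples at 6 months. The 24 blood samples are 6 in each of the 4 groups.

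The lining of the conducting airway holds ciliated cells and secretory cells. Club cells release secretoglobins, and goblet cells release the gel-forming mucins that make up mucus. In rodent airways the club cell is the common secretory cell and goblet cells are sparse at rest, while inhaled irritants and type 2 cytokines are known to raise mucin production. The transcription factor SPDEF drives the goblet cell programme, and AGR2, a protein of the endoplasmic reticulum, is needed to fold mucins. BPIFA1 and BPIFB1 are secreted proteins of the BPI fold family with a part in airway defence, and CLCA1 is a secreted protein of goblet cells.

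Promoter sequences were available for 8 of the 10 genes in RefSeq's annotation of build GRCr8, which is not the build of the count tables. Those of the 4 genes that passed the test upwards at 1 day are shown. Each line gives the sense strand, 5′ to 3′, around the annotated start, with motif matches in capitals. Bpifb1 lies on the plus strand at chr3:163132901-163133200, Clca1 on the minus strand at chr2:236624665-236624964, Muc20 on the plus strand at chr11:81492641-81492940, and Spdef on the minus strand at chr20:5787636-5787935.
Bpifb1: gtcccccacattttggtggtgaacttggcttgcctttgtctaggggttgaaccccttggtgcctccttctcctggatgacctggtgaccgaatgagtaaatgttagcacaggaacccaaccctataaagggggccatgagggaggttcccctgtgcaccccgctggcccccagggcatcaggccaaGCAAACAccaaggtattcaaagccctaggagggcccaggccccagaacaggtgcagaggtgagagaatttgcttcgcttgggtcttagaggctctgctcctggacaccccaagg
Clca1: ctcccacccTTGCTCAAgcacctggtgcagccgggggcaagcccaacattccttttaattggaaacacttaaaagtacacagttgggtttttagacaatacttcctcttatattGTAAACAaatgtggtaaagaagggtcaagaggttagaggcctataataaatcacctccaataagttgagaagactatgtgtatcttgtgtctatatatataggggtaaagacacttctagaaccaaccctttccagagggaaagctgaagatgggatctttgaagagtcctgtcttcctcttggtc
Muc20: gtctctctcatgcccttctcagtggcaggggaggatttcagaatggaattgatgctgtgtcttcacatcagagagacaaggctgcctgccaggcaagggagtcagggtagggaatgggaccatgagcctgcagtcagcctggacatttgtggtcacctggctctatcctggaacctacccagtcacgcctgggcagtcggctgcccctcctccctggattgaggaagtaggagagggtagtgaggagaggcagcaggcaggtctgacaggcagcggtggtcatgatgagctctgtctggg
Spdef: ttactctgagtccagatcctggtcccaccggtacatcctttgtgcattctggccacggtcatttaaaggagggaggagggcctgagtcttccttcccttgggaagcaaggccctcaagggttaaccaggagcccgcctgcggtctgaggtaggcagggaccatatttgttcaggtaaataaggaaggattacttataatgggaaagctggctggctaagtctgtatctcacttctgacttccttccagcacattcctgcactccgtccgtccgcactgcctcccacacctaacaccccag

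The motifs searched, on both strands, were TGTTTAC and TGTTTGC for FOXA factors, TTCNNNNGAA for STAT6, TTGCNNAA for C/EBP factors, ATCCGG for SPDEF and GGGNNTTTCC for NF-kB. The Bpifb1 promoter held 1 FOXA match, 64 bases before the start. The Clca1 promoter held a FOXA match 136 bases before the start and a C/EBP match 241 bases before it. No match was found in the Muc20 and Spdef windows. A FOXA match stood in 3 of the 8 promoters, against 8.43% of the 33469 promoters in the table, and a C/EBP match in 2, against 10.6%. An SPDEF match stood in 1, that of Scgb3a1, against 6.64% of all promoters. STAT6 and NF-kB matches stood in 0 of the 8, against 7.28% and 1.53% of all promoters. These are counts of letters, not of bound sites.

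The lung libraries held 13.4 M to 24.6 M estimated counts. There were 5 pairs of near-identical libraries within lung groups, with differences close to what sampling gives: air 02 and 07, air 04 and 08 (both 1 day), air 19 and 24, air 20 and 25, and silica 30 and 31 (all 6 months). The mean of each pair entered the tests as 1 library, so they rest on 17 libraries: 6 silica and 4 air at 1 day, and 5 silica and 2 air at 6 months. Both late air libraries stood apart from the other lungs in the markers of natural killer cells and large granular lymphocytes, all 8 of which were found, with a summed level of 2170 to 2560 CPM (counts scaled per 1e6 of the library) against 164 to 776 CPM in the other groups. Every 6-month contrast, and every contrast of the air groups over time, rests on those 2 libraries, and the part of these cells in any result was not tested. Whether the samples of 1 group came from different animals is not stated in the labels, so p-values reflect only library-to-library spread, which may be technical.

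Of the 10 genes, 9 had enough counts to be tested. Muc5ac, which encodes the gel-forming mucin of goblet cells, had 23 counts over the 22 lung libraries and 0 to 4 in any of them, and was not tested in any comparison. All 9 others were counted in at least 21 of the 22 libraries. Scgb1a1, the defining club cell product, was at 2190 to 8630 CPM over the 17 libraries. In blood its count was 0 in all 24 libraries, as were those of Muc5b, Clca1 and Bpifa1, while Agr2 had 3, Bpifb1 1, Spdef 10 and Muc5ac 14 counts over the 24 libraries. Scgb3a1 had 148 counts, between 0.062 and 1.03 CPM. Muc20 did not follow this pattern: it was counted in 24 of 24 blood libraries, 12822 counts in all, at 20.5 to 54.8 CPM, above every lung library, where the highest was 15.1 CPM when scaled by library size alone. Reads assigned to Muc20 were therefore not restricted to lung, and the part of blood cells in its lung level was not tested.

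**Figure D1:**
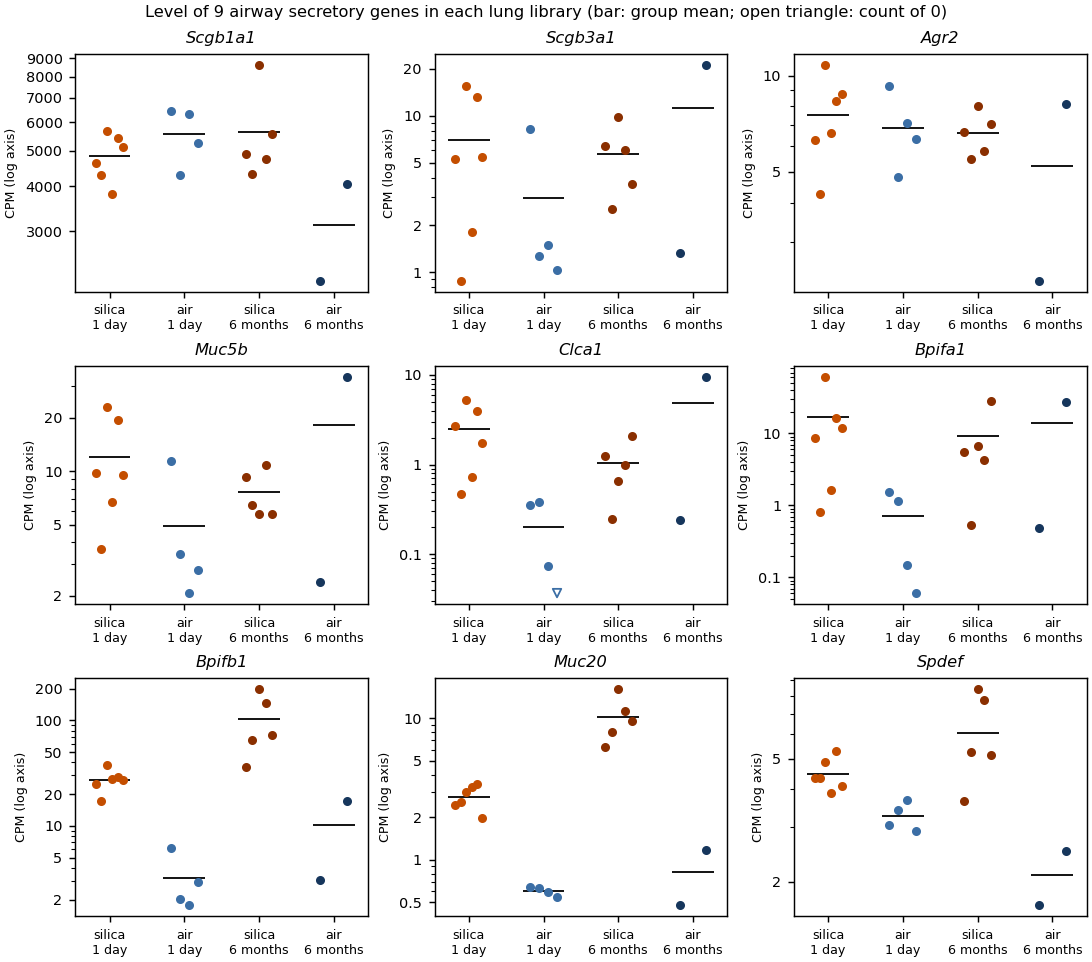
CPM of the 9 tested genes (y axes, log scale) in each lung library, by group (x axes: silica and air at 1 day, silica and air at 6 months). Points are libraries, near-identical pairs averaged, bars are group means, and an open triangle marks a count of 0. Muc20, Bpifb1 and Spdef lie higher in every silica library than in every air library at both times, while 1 of the 2 late air libraries is high in Muc5b, Clca1, Bpifa1 and Scgb3a1.

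The first comparison asked how these genes differed between silica and air lungs 1 day after exposure. Muc20, Bpifb1, Clca1 and Spdef rose and none fell, so 4 of 9 genes passed upwards, where 7.61% of the 15724 genes tested did, and 0 of 9 downwards, where 4.07% did. The median log2 fold change of the 9 was 1.27, against 0.001 over all genes tested. The club cell products Scgb1a1 and Scgb3a1 and the mucin-folding gene Agr2 did not pass.

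Muc20, which encodes a membrane-bound mucin, had 1.98 CPM in the lowest, 2.78 in the median and 3.42 in the highest of 6 silica lungs, against 0.646, 0.632, 0.590 and 0.546 CPM in the 4 air lungs. Every silica library lay above every air library, and the air libraries were close together. The means were 2.78 ± 0.544 CPM in silica lungs (SD, n = 6) and 0.604 ± 0.0455 CPM in air lungs (n = 4), and the log2 fold change came to 2.19 ± 0.21 (adjusted p = 2.24e-05, ± here and below being the SE unless marked SD). With each library left out in turn it stayed between 2.12 and 2.26.

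Bpifb1 had 17 CPM in the lowest, 27.5 in the median and 37.7 in the highest silica lung, against 6.17, 2.02, 1.77 and 2.91 CPM in the air lungs. The groups did not overlap. The log2 fold change was 3.06 ± 0.37 (adjusted p = 0.000882), and the highest adjusted p with 1 library left out was 0.00568, without air 06.

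Clca1 had 0.472 CPM in the lowest, 2.23 in the median and 5.26 in the highest silica lung, against 0.353, 0.379, 0.0738 and 0 CPM in the air lungs. With pairs averaged, all 6 silica libraries lay above the highest air library, the lowest of them, silica 11, only by a little, with 7 counts. Before averaging the groups met: scaled by library size alone, air 07 had 0.474 CPM (8 counts) and silica 11 had 0.473 CPM. Air 06 had 0 counts, where 3 counts would be 0.182 CPM. The log2 fold change was 3.55 ± 0.92 (adjusted p = 0.0350). With 1 library left out at a time, 8 of 10 fits lost the call, those without any of the 4 air libraries or silica 10, 12, 14 or 15, with adjusted p from 0.0509 (without silica 15) to 0.0985 (without air 05).

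Spdef had 3.88 CPM in the lowest, 4.32 in the median and 5.29 in the highest silica lung, against 3.06, 3.42, 3.69 and 2.91 CPM in the air lungs. The groups did not overlap, but the step was small, 0.45 ± 0.13 in log2 fold change (adjusted p = 0.0452). Without any 1 of the 10 libraries it no longer passed, with values from 0.39 to 0.50 and adjusted p up to 0.145 (without air 06). In 5 of the 22 lung libraries its deposited value was not a whole number, so part of its reads was assigned by estimate and may be shared with another gene.

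Bpifa1, the BPI fold gene best known from upper airways, varied widely. It had 0.81 CPM in the lowest, 10.1 in the median and 60.8 in the highest silica lung, against 1.53, 1.14, 0.148 and 0.0606 CPM in the air lungs. In 5 of the 6 silica libraries it was above every air library, and silica 11 was the exception. The log2 fold change of 4.48 ± 1.47 was the greatest of the 9 and did not pass (adjusted p = 0.0956).

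The gel-forming mucin gene Muc5b had 3.64 CPM in the lowest, 9.61 in the median and 23.1 in the highest silica lung, against 11.4, 3.42, 2.07 and 2.79 CPM in the air lungs. The high air library, 02-07, lay above 4 of the 6 silica libraries. The log2 fold change was 1.27 ± 0.67 (adjusted p = 0.291), and 2.10 without air 02-07, still without a call.

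Scgb3a1, a secretoglobin of the larger airways, had 0.877 CPM in the lowest, 5.38 in the median and 15.5 in the highest silica lung, against 8.17, 1.26, 1.48 and 1.03 CPM in the air lungs. Air 02-07 was again the high air library (log2 fold change 1.22 ± 0.94, adjusted p = 0.497). Agr2 ranged from 4.25 to 10.8 CPM in silica lungs and from 4.81 to 9.29 CPM in air lungs, and Scgb1a1 from 3810 to 5680 CPM in silica lungs and from 4290 to 6450 CPM in air lungs. Both ranges overlapped widely, with log2 fold changes of 0.13 ± 0.25 for Agr2 (adjusted p = 0.814) and -0.20 ± 0.14 for Scgb1a1 (adjusted p = 0.407).

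**Figure D2:**
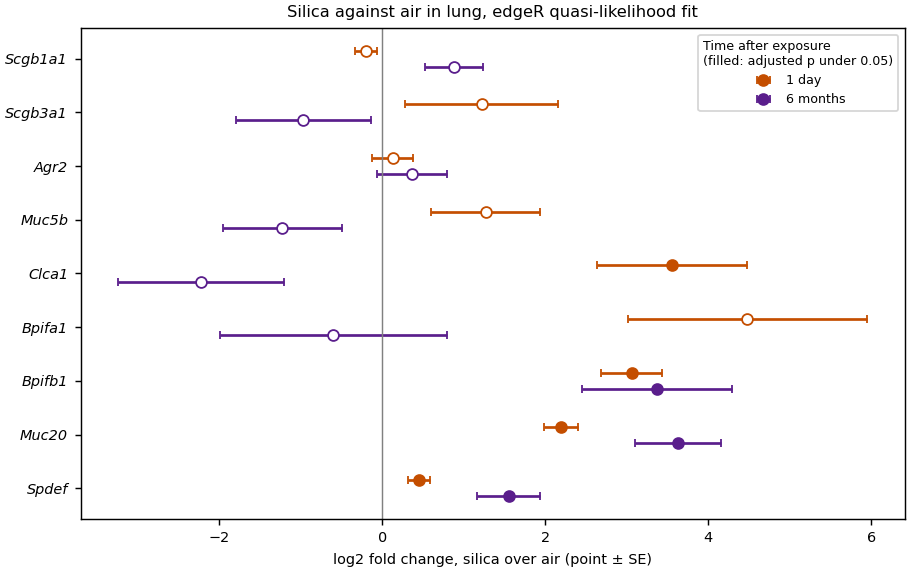
Log2 fold change of silica over air lungs (x axis) for the 9 tested genes (y axis), at 1 day and at 6 months after exposure, from edgeR's quasi-likelihood fit of each time. Points are estimates, bars are ± SE, and filled points have an adjusted p under 0.05. Muc20, Bpifb1 and Spdef are right of 0 and filled at both times, while Clca1 is at 3.55 at 1 day and at -2.22, with a wide error, at 6 months.

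At 6 months the same question was asked of the second set of lungs. Muc20, Bpifb1 and Spdef rose, 3 of 9 genes, where 9.51% of the 16267 genes tested rose and 10.1% fell, and 0 of the 9 genes fell. The median log2 fold change was 0.36, against -0.003 over all genes tested. All 3 rises had groups that did not overlap, a state that 19.7% of genes showed upwards and 24.8% downwards with these 5 silica and 2 air libraries, against 6.98% and 4.2% at 1 day.

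Muc20 had 6.29, 8.05, 16.1, 11.3 and 9.64 CPM in the silica lungs, against 0.479 and 1.17 CPM in the air lungs. Even the lowest silica lung was more than the highest air lung by a wide margin, and the mean of silica lungs was 12.5 times that of air lungs. The log2 fold change was 3.63 ± 0.53 (adjusted p = 0.00713), and 3.17 (adjusted p = 0.0817) without air 19-24.

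Bpifb1 had 36.1, 65.7, 198, 146 and 73.3 CPM in the silica lungs, against 3.05 and 17.1 CPM in the air lungs. Silica 33 and 34 were the highest, as they were for Muc20. In log2 fold change this was 3.37 ± 0.92 (adjusted p = 0.0399), and the call was lost without either air library or without silica 32, 34 or 35, with adjusted p from 0.0554 to 0.239.

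Spdef had 3.66, 5.28, 8.42, 7.73 and 5.14 CPM in the silica lungs, against 1.68 and 2.52 CPM in the air lungs. The order of the silica libraries was again led by 33 and 34. In log2 fold change this was 1.55 ± 0.39 (adjusted p = 0.0311), lost without the same 5 libraries, with adjusted p from 0.0511 to 0.257.

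Scgb1a1 had 4910, 4320, 8630, 4750 and 5570 CPM in the silica lungs, against 2190 and 4050 CPM in the air lungs. The groups did not overlap, but the log2 fold change of 0.88 ± 0.35 did not pass (adjusted p = 0.124). It did pass with DESeq2, with every library kept separate, with pairs judged at full depth and in 1 fit of all 4 lung groups, at 0.85 to 1.04.

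The 5 other genes split the 2 late air libraries. Muc5b had 9.27, 6.44, 5.75, 10.9 and 5.77 CPM in the silica lungs, against 2.39 CPM in air 19-24 and 33.9 CPM in air 20-25. Clca1 had 1.26, 0.248, 0.653, 0.979 and 2.09 CPM in the silica lungs, against 0.239 and 9.49 CPM in the same air libraries. In both genes every silica library lay between the 2 air libraries.

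Bpifa1 had 5.43, 0.537, 6.64, 4.31 and 28.5 CPM in the silica lungs, against 0.479 and 27.2 CPM in the air lungs. Scgb3a1 had 6.35, 2.52, 9.73, 6.02 and 3.68 CPM in the silica lungs, against 1.32 and 21.1 CPM in the air lungs. Agr2 had 6.64, 5.49, 8.01, 5.82 and 7.04 CPM in the silica lungs, against 2.27 and 8.13 CPM in the air lungs. None of these 5 passed, and leaving out air 20-25 turned the sign of 4 of them: Muc5b was at -1.23 ± 0.73 with it and 1.73 without it, Clca1 at -2.22 ± 1.02 and 2.13, Bpifa1 at -0.60 ± 1.39 and 4.28, and Scgb3a1 at -0.97 ± 0.83 and 2.15, with no call in any. Agr2, at 0.36 ± 0.43, came to 1.59 without air 20-25, where it passed (adjusted p = 0.043), and to -0.26 without air 19-24.

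The silica effect at 6 months was then tested against that at 1 day in 1 fit of the 4 lung groups, as an interaction. It was more positive at 6 months for Muc20, Spdef and Scgb1a1, 3 of 9 genes, where 12.1% of the 16567 genes tested were, and more negative for Clca1, 1 of 9, where 14.6% were. The difference, 6 months minus 1 day on the log2 scale, was 1.41 ± 0.48 for Muc20 (adjusted p = 0.0376). It was 1.07 ± 0.34 for Spdef (adjusted p = 0.0301) and 1.06 ± 0.34 for Scgb1a1 (adjusted p = 0.0305). For Clca1 it was -5.80 ± 1.44 (adjusted p = 0.00858).

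Each of these differences leaned on single libraries. Clca1 came to -1.44 (adjusted p = 0.62) without air 20-25. Muc20 lost its call in 9 of 17 fits, without any of the 4 early air libraries, silica 10, 11, 15 or 34, or air 19-24, with values from 0.94 to 1.46 and adjusted p from 0.0522 to 0.269. Spdef lost it without air 05 (1.00) and air 19-24 (0.81), and Scgb1a1 without air 02-07 (0.98), air 05 (1.00) and air 19-24 (0.69). Bpifa1 (-5.12 ± 2.0, adjusted p = 0.0713), Muc5b (-2.53 ± 1.03, adjusted p = 0.0813), Scgb3a1 (-2.22 ± 1.32), Bpifb1 (0.28 ± 0.86) and Agr2 (0.20 ± 0.48) did not pass. Bpifb1 had fold changes of 3.37 at 6 months and 3.06 at 1 day, and no difference between them was detectable with these libraries.

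The 2 times were also compared within each exposure, where time, age and any difference in handling cannot be told apart. In silica lungs Muc20 and Bpifb1 were higher at 6 months than at 1 day, 2 of 9 genes, where 4.43% of genes were higher, and 0 of 9 were lower, where 5.21% were. The log2 fold change over time was 1.88 ± 0.23 for Muc20 (adjusted p = 0.000462) and 1.93 ± 0.44 for Bpifb1 (adjusted p = 0.0163). All 5 late silica libraries of Muc20, from 6.29 to 16.1 CPM, lay above the 6 early ones, at 1.98 to 3.42 CPM. The share of all genes with such a gap over time was not taken. For Bpifb1 the lowest late library, 30-31 at 36.1 CPM, lay below the highest early one, silica 12 at 37.7 CPM. Both calls held with each library left out in turn, with adjusted p up to 0.00227 for Muc20 and 0.0438 for Bpifb1. The other 7 genes had log2 fold changes from -1.27 (Clca1) to 0.44 (Spdef) and did not pass.

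In air lungs Clca1 was higher at 6 months than at 1 day, 1 of 9 genes, where 22.5% of genes were higher, and Scgb1a1 was lower, 1 of 9, where 19% were. In log2 fold change this was 4.53 ± 1.19 for Clca1 (adjusted p = 0.00679), and 0.18 (adjusted p = 0.951) without air 20-25. It was -0.84 ± 0.28 for Scgb1a1 (adjusted p = 0.0267), with 2190 and 4050 CPM at 6 months against 4290 to 6450 CPM at 1 day, and the call was lost without air 02-07, air 05 or air 19-24 (-0.45, adjusted p = 0.366). Muc20 in air lungs was at 0.479 and 1.17 CPM at 6 months and at 0.546 to 0.646 CPM at 1 day (0.47 ± 0.40, adjusted p = 0.371).

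Within groups, 5 of the 9 genes (Muc5b, Clca1, Bpifa1, Scgb3a1 and Agr2) varied with ciliated and cardiac markers, Muc20 and Spdef with neutrophil and alveolar type 2 markers, and Bpifb1 with genes of both sets. After the group means were taken out of log2(CPM + 0.5), Pearson's r over the 17 libraries was 0.92 for Muc5b and Scgb3a1, 0.93 for Clca1 and Bpifa1 and 0.85 for Muc5b and Clca1. It was 0.84 for Muc20 and Spdef, 0.80 for Muc20 and Bpifb1 and 0.72 for Bpifb1 and Spdef. With the first 5 genes, r was 0.34 to 0.44 for Muc20, 0.28 to 0.41 for Spdef and 0.50 to 0.71 for Bpifb1, so Bpifb1 did not stand apart from them. Scgb1a1 had 0.91 with ciliated and 0.60 with alveolar type 2 markers. With the sum of 12 other club cell genes, r was 0.86 for Scgb1a1, 0.79 for Bpifb1, 0.69 for Muc20 and 0.64 for Spdef. For Agr2 it was 0.73, for Bpifa1 0.71, for Scgb3a1 0.68, for Clca1 0.61 and for Muc5b 0.52. The club cell list thus did not separate the sets. The late air group held 2 libraries, so removing its mean left values equal in size and opposite in sign. These libraries, air 19-24 and air 20-25, lay far apart in Muc5b (2.39 and 33.9 CPM) and Clca1 (0.239 and 9.49 CPM). Part of r in the first set comes from that gap, and how large a part was not tested. These are descriptions over libraries that share tissue and processing, and carry no test.

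**Figure D3:**
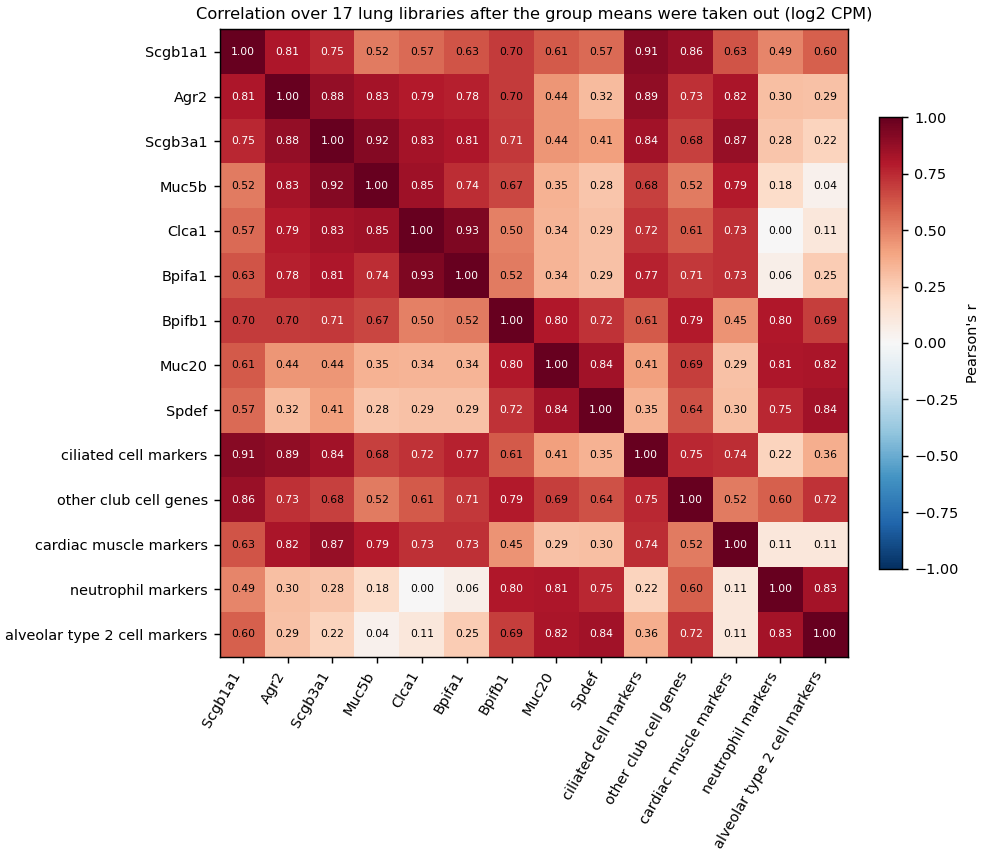
Pearson's r between the 9 genes and the summed levels of 5 marker lists (both axes) over the 17 lung libraries, after the group means were taken out of log2(CPM + 0.5). Colour and number give r, in which the gap between the 2 late air libraries has a part. Muc5b, Clca1, Bpifa1, Scgb3a1 and Agr2 form 1 block that also takes in ciliated and cardiac muscle markers (r from 0.68 to 0.89), and Bpifb1, Muc20 and Spdef have r of 0.69 to 0.84 with neutrophil and alveolar type 2 markers, while Bpifb1 also has 0.50 to 0.71 with the 5 genes of the first block.

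The first set varied with ciliated cell markers and with markers of cardiac muscle, a tissue also present in the walls of rat pulmonary veins. The cardiac and neutrophil lists were brought into these correlations after values had been seen. With the summed level of the 12 ciliated cell markers found, r was 0.91 for Scgb1a1, 0.89 for Agr2, 0.84 for Scgb3a1, 0.77 for Bpifa1, 0.72 for Clca1 and 0.68 for Muc5b, against 0.61 for Bpifb1, 0.41 for Muc20 and 0.35 for Spdef. With the 6 cardiac muscle markers it was 0.87 for Scgb3a1, 0.82 for Agr2, 0.79 for Muc5b and 0.73 for both Clca1 and Bpifa1. For Scgb1a1 it was 0.63, for Bpifb1 0.45, for Spdef 0.30 and for Muc20 0.29. The 2 marker sums themselves had an r of 0.74. Of the cardiac markers 5 were above 0 in every lung library and 1, Nppa, was at 0 in all. In bulk tissue, more cells of a type and more RNA per cell cannot be told apart.

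The summed cardiac level ranged from 15.3 to 390 CPM in silica and 20.7 to 188 CPM in air lungs at 1 day, and from 54.4 to 214 CPM in silica and 23.4 to 302 CPM in air lungs at 6 months. Air 20-25, high in Muc5b, Clca1, Bpifa1, Scgb3a1 and Agr2, had 302 CPM, and air 19-24 had 23.4 CPM. At 1 day silica 12 and 14, the highest in Muc5b and Scgb3a1, had 390 and 363 CPM, silica 11, the lowest in both, had 15.3 CPM, and air 02-07, the high air library, had 188 CPM. Other libraries did not follow this order. Air 05 had 123 CPM of cardiac markers but 2.07 CPM of Muc5b, the lowest of the 17 libraries, and 1.48 CPM of Scgb3a1. Silica 10 had 25.7 CPM of cardiac markers, 9.74 CPM of Muc5b and 5.29 CPM of Scgb3a1, and silica 33, with 128 CPM, was the lowest late silica library in Muc5b and the highest in Scgb3a1. None of the 5 cardiac markers tested passed between silica and air lungs at either time. The part of airway or cardiac muscle in these values was not tested.

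**Figure D4:**
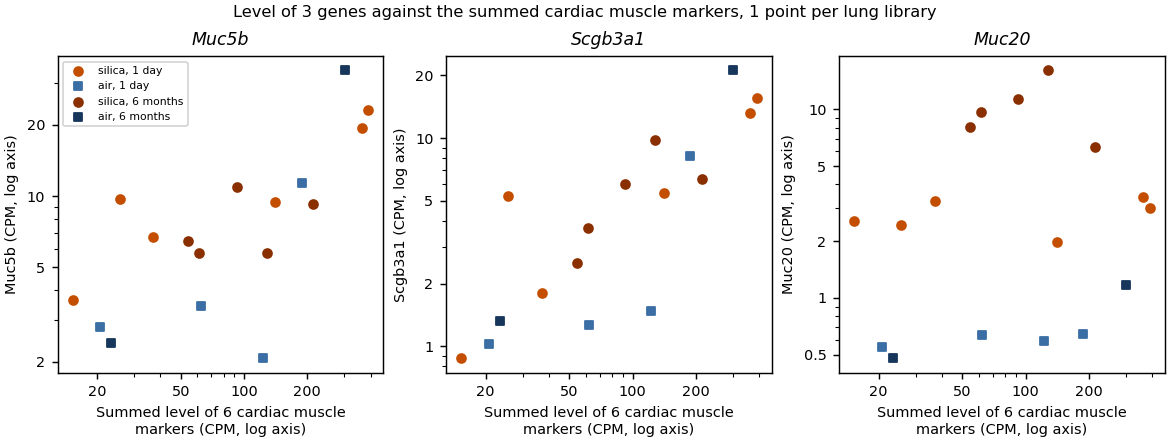
Level of Muc5b, Scgb3a1 and Muc20 (y axes, CPM, log scale) against the summed level of 6 cardiac muscle markers (x axes, CPM, log scale), with 1 point for each of the 17 lung libraries. Circles are silica and squares air. The libraries with the 3 highest cardiac sums (302, 363 and 390 CPM) are the highest in Muc5b and Scgb3a1, but air 05 is low in both at a cardiac sum of 123 CPM, and every silica library lies above every air library in Muc20, whatever its cardiac sum.

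Set against the ciliated markers of the same library, the 4 genes called at 1 day had groups that did not overlap. The log2 ratio of gene to summed ciliated markers (0.05 CPM added to the gene) was higher in silica than in air lungs at 1 day by 3.61 for Clca1, 3.44 for Bpifb1, 2.33 for Muc20 and 0.68 for Spdef. Bpifa1 had the greatest difference, 4.25, with groups that overlapped, as they did for Muc5b (1.60), Scgb3a1 (1.42), Agr2 (0.34) and Scgb1a1 (0.04). At 6 months it was 3.24 for Muc20, 3.21 for Bpifb1, 1.10 for Spdef and 0.50 for Scgb1a1, without overlap, and from -1.25 (Clca1) to 0.23 (Agr2) for the other 5, which overlapped. This ratio was chosen after the values had been seen and was given no test, and no share over all genes was taken. The 4 genes had been called on these same libraries. Their groups did not overlap in CPM at 1 day either, nor did those of Muc20, Bpifb1, Spdef and Scgb1a1 at 6 months. In CPM, 19.7% of genes had every silica library above the air libraries at 6 months. The ciliated sum itself was 527 to 737 CPM in silica and 630 to 853 CPM in air lungs at 1 day. At 6 months it was 513 to 661 CPM in silica and 375 to 535 CPM in air lungs. The part of these differences in the ratios was not tested.

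Muc20, Spdef and Bpifb1 varied with neutrophil and alveolar markers. With the 6 neutrophil markers, r was 0.81 for Muc20, 0.80 for Bpifb1 and 0.75 for Spdef, and with the 9 alveolar type 2 markers 0.82, 0.69 and 0.84 in the same order. All 6 neutrophil markers were above 0 in every lung library, led by S100a9, and their sum was 1120 to 1540 CPM in silica lungs and 328 to 403 CPM in air lungs at 1 day, and 1160 to 3230 CPM in silica lungs and 164 to 228 CPM in air lungs at 6 months. The alveolar type 2 sum was 27600 to 31200 CPM in silica and 22000 to 24500 CPM in air lungs at 1 day, and 25400 to 54500 CPM in silica and 14200 to 17000 CPM in air lungs at 6 months. Silica 33 was the highest late library in Muc20, Bpifb1, Spdef and both sums. Their part in the rise of these 3 genes was not tested.

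**Figure D5:**
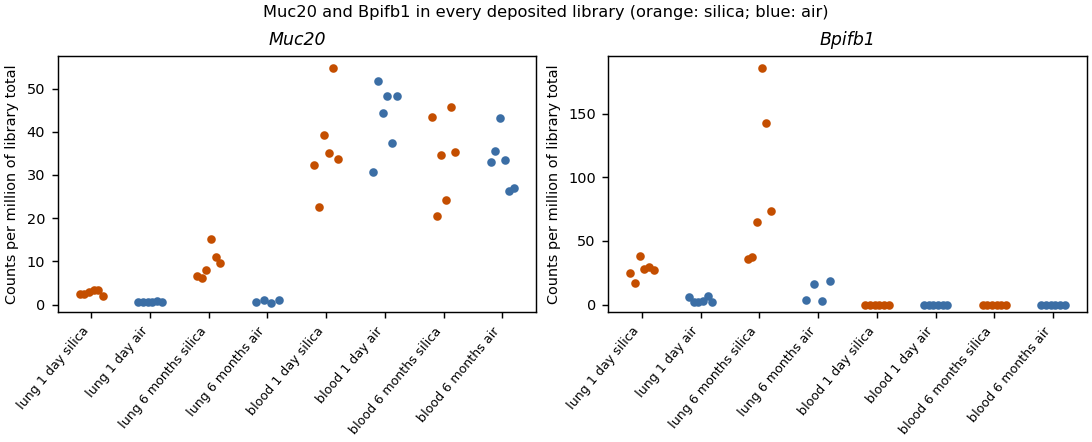
Muc20 and Bpifb1 (y axes, CPM scaled by the library total) in every deposited library, by tissue, time and exposure (x axes). Each point is 1 library, orange for silica and blue for air. Muc20 is at 20.5 to 54.8 in all blood libraries and up to 15.1 in lung, and Bpifb1 is near 0 in blood and up to 186 in lung.

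In blood, Muc20 overlapped between exposures at both times. It was at 22.7 CPM in the lowest, 34.4 in the median and 54.8 in the highest silica library, against 30.8, 46.2 and 51.8 CPM in air libraries at 1 day. At 6 months it was at 20.5, 35 and 45.7 CPM in silica libraries, against 26.4, 33.2 and 43.3 CPM in air libraries. In blood no difference was tested.

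Over the 17 lung libraries and without removing group means, the genes most like each member were found among 16567. For Muc20 they were Retnla, which encodes a resistin-like protein (r = 0.986), the amino acid transporter gene Slc7a7 (0.980) and the complement factor I gene Cfi (0.980). Cfi (0.965), Muc20 (0.951) and Slc7a7 (0.951) were also the nearest to Bpifb1. For Spdef they were Baalc (0.960), Pld3 (0.960) and the protease gene St14 (0.959).

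The neighbours of Muc5b, Clca1, Bpifa1 and Scgb3a1 included one another. Muc5b was nearest to Scgb3a1 (0.911), Gabrp (0.895) and Clca1 (0.872), and Clca1 to Bpifa1 (0.924), Muc5b and Gabrp (0.842). Bpifa1 had Clca1, LOC691352 (0.844) and Gabrp (0.840), where Gabrp encodes a subunit of a GABA receptor. Agr2 was nearest to the club cell cytochrome gene Cyp2f4 (0.954), Lrrc56 (0.934) and Lypd2 (0.923), and Scgb3a1 to Cyp4a8 (0.967), Serpinf1 (0.928) and Muc5b. Scgb1a1 was nearest to RGD1561916 (0.977), Fam183b (0.971) and the cilium gene Enkur (0.967).

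Calls in the other gene lists are to be read against the shares over all genes tested, 7.61% up and 4.07% down at 1 day and 9.51% up and 10.1% down at 6 months. With lists this short, 1 call moves a share by much. The lists were also chosen with earlier results of these data known, so the shares give no test of a list. Among 12 other club cell genes, 1 of 9 tested rose and 2 fell at 1 day, and 3 of 10 rose and none fell at 6 months, so that the single early rise was near the share over all genes. The tight junction gene Cldn10 averaged 30.4 ± 3.27 CPM (SD) in 6 silica lungs and 16.6 ± 1.86 CPM in 4 air lungs at 1 day, 0.88 ± 0.09 apart in log2 (adjusted p = 4.7e-05), and rose by 1.65 ± 0.34 at 6 months (adjusted p = 0.0171). The cytochrome gene Cyp4b1 fell at 1 day (-0.36 ± 0.05, adjusted p = 0.000604), as did Cyp2b1 (-0.20 ± 0.06, adjusted p = 0.0314), lost in 4 of 10 fits with 1 library left out (air 04-08, air 06, silica 12 or silica 13). The secretoglobin gene Scgb1c1 (2.99 ± 0.77) and the carboxylesterase gene Ces1d (0.88 ± 0.23) rose at 6 months. Scgb1c1 was near the floor, with means of 0.667 CPM in silica and 0.0766 CPM in air lungs. In those air libraries 3 counts would be 0.14 to 0.179 CPM. Its call was lost in 4 of 7 fits with 1 library left out.

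Of 10 other mucin genes, 3 were tested at each time and the membrane mucin gene Muc1 rose at both. It averaged 290 ± 20.8 CPM (SD) in 6 silica lungs and 173 ± 11.3 CPM in 4 air lungs at 1 day, with a log2 fold change of 0.75 ± 0.06 (adjusted p = 4.32e-06). At 6 months it was at 433 ± 153 CPM in silica lungs (n = 5) and 120 ± 22.7 CPM in air lungs (n = 2), with 1.88 ± 0.38 (adjusted p = 0.0159).

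Of 22 genes of mucus production, 10 were tested at 1 day, where 2 rose, and 11 at 6 months, where 2 rose and 2 fell, not far from the shares over all genes at either time. Slc26a4, which encodes the anion exchanger pendrin, averaged 66.8 ± 10.4 CPM (SD) in 6 silica lungs and 4.82 ± 1.86 CPM in 4 air lungs at 1 day (3.80 ± 0.24, adjusted p = 1.3e-05), and rose by 4.82 ± 0.52 at 6 months (adjusted p = 0.00481). The chloride cotransporter gene Slc12a2 passed at 1 day with 0.12 ± 0.04 (adjusted p = 0.0483), a call lost in 10 of 10 fits with 1 library left out. At 6 months Fcgbp, which encodes a protein bound to mucins, rose by 1.09 ± 0.30 on the log2 scale. The O-glycosylation gene Galnt6 fell (-1.90 ± 0.14, adjusted p = 0.00284), with 50.2 ± 3.19 CPM in silica lungs (n = 5) and 191 ± 45.7 CPM in air lungs (n = 2), and the protease gene Capn9 fell (-2.14 ± 0.63, adjusted p = 0.0493). Both were high in the 2 late air libraries that stood apart: over time Galnt6 rose in air lungs by 2.48 ± 0.19 (adjusted p = 4.49e-07) and in silica lungs by 0.51 ± 0.14 (adjusted p = 0.0321), and Capn9 rose in air lungs by 3.72 ± 0.76 (adjusted p = 0.00109).

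Of 15 other BPI fold and CLCA genes, 4 were tested at each time. At 1 day Lbp, the lipopolysaccharide-binding protein gene, rose by 0.44 ± 0.07 on the log2 scale (adjusted p = 0.00149) and Bpifb5 by 1.32 ± 0.34 (adjusted p = 0.024, lost without air 02-07, 05 or 06), and at 6 months Lbp rose by 1.51 ± 0.32 (adjusted p = 0.0177). Of 12 serous and gland genes, 9 were tested at each time: 4 rose and 1, Azgp1 (-0.85 ± 0.17, adjusted p = 0.00565), fell at 1 day, and 5 rose at 6 months. The lactoperoxidase gene Lpo averaged 3.55 ± 1.15 CPM (SD) in 6 silica lungs and 0.46 ± 0.129 CPM in 4 air lungs at 1 day (2.93 ± 0.30, adjusted p = 3.05e-05). At 6 months it was at 274 ± 48.1 CPM in silica lungs (n = 5) and 1.07 ± 0.408 CPM in air lungs (n = 2), or 8.0 ± 0.36 higher on the log2 scale (adjusted p = 0.000413). The neutrophil and epithelial lipocalin gene Lcn2 rose by 2.68 ± 0.16 at 1 day and 3.65 ± 0.53 at 6 months, the polymeric immunoglobulin receptor gene Pigr by 0.83 ± 0.06 and 1.48 ± 0.28, and the lysozyme gene Lyz2 by 0.38 ± 0.07 and 1.52 ± 0.33. The protease inhibitor gene Slpi rose at 6 months (1.84 ± 0.44, adjusted p = 0.0271). Azgp1 and Slpi are named after their values were seen, to complete these counts.

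Regulators of airway secretory cells were also measured. Of 16 airway transcription factor and Notch genes, 15 were tested, with 4 up and 1 down at 1 day and 5 up at 6 months. The epithelial ETS factor gene Elf3 averaged 52.3 ± 4.44 CPM (SD) in 6 silica lungs and 24.5 ± 5.3 CPM in 4 air lungs at 1 day (1.10 ± 0.12, adjusted p = 0.000171), and rose by 1.92 ± 0.39 at 6 months (adjusted p = 0.0151). The related Ehf rose by 0.49 ± 0.08 at 1 day, and Nkx2-1, the lung lineage factor, by 0.23 ± 0.05 at 1 day and 1.07 ± 0.17 at 6 months. Klf5 fell at 1 day (-0.35 ± 0.08, adjusted p = 0.00973). The remaining gene that rose at each time was Xbp1, a factor of secretory cells, named here after its values were seen. At 6 months Foxa2 (0.74 ± 0.14) and Grhl2 (0.75 ± 0.21) rose.

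Of 16 type 2 cytokine pathway genes, 11 were tested, with 2 up and 3 down at 1 day and 3 up at 6 months. The cytokine genes Il4, Il5, Il13 and Il25 and the receptor gene Il13ra2 did not pass the filter on counts and were not tested. Retnla averaged 17.9 ± 1.76 CPM (SD) in 6 silica lungs and 3.55 ± 0.405 CPM in 4 air lungs at 1 day (2.33 ± 0.11, adjusted p = 3.45e-08), and rose by 5.65 ± 1.08 at 6 months (adjusted p = 0.0131). The lipoxygenase gene Alox15 fell at 1 day (-1.33 ± 0.13, adjusted p = 3.42e-05), as did Il33 (-0.30 ± 0.06), which encodes an epithelial alarmin, and the interleukin-4 receptor gene Il4r (-0.27 ± 0.05). The other rise at 1 day was Il1rl1, the interleukin-33 receptor gene, named after its values were seen. At 6 months Il4r (0.41 ± 0.12) and Il13ra1 (0.67 ± 0.13) rose. Of 13 genes of interleukin-1, interleukin-17 and the ligands of the EGF receptor, 10 were tested, with 2 up at 1 day and 4 up at 6 months: Il1b by 0.79 ± 0.13 and 2.42 ± 0.23, Il1a by 0.53 ± 0.13 (lost without air 02-07 or 05) and 0.94 ± 0.16, and, at 6 months, the EGF receptor ligands Areg (2.17 ± 0.58) and Ereg (1.78 ± 0.51). In that list Il6, Il17a and Il17f were not tested.

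Markers of neighbouring cells were counted in the same way. Of 12 ciliated cell markers tested, 1, Tppp3, fell at 1 day (-0.34 ± 0.08, adjusted p = 0.0136) and none passed at 6 months. Of 9 alveolar type 2 markers, 6 rose at 1 day and 7 at 6 months, among them the surfactant protein genes Sftpa1 (0.70 ± 0.06 at 1 day and 1.63 ± 0.35 at 6 months) and Sftpd (0.54 ± 0.06 and 1.75 ± 0.38). Of 8 alveolar type 1 markers, 4 fell at 1 day, among them Hopx (-0.36 ± 0.06), and 1, Pdpn, rose at 6 months (0.56 ± 0.14). Of 4 basal cell markers tested, none passed at 1 day and Aqp3 rose at 6 months (1.18 ± 0.32). The basal markers Tp63, Krt5, Krt14 and Krt17 did not pass the filter on counts and were not tested.

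The 6-month counts in these lists rest on air 19-24. Without it 1 air library was left, and calls fell over all genes tested and not only in these lists. Few calls of the lists were kept in that fit, the rise of Lpo and the fall of Galnt6 among them. Fcgbp, Ces1d, Grhl2, Il4r, Areg and Pdpn lost their calls in 5 of 7 fits with 1 library left out, and Ereg and Capn9 in 6 of 7.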

How the data were processed

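Lung and blood RNA was sequenced from poly(A)-selected stranded libraries, per the labels' protocols. Salmon 1.10.1 and STAR 2.6.1d, the trimmers Trim Galore 0.6.7 and cutadapt 3.4, the converter bcl2fastq 2.19 and the rat build Rnor_6.0 are named in the submitters' processing notes. No annotation release is named there. The tables the authors deposited hold estimated counts per gene, which were rounded to whole numbers here. Columns were matched to samples by name.

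Lung genes passed edgeR's filterByExpr (minimum count 10, minimum total 15), were scaled by TMM, and were tested with edgeR 4.0.16 (R 4.3.3, limma 3.58.1), robust quasi-likelihood, with Benjamini-Hochberg adjustment over all genes tested and a threshold of 0.05. Silica against air was fitted separately at each time, and the interaction and the time comparisons in 1 fit of the 4 lung groups. CPM use TMM-scaled library sizes, and blood CPM library totals. DESeq2 1.42.0 was an alternative. Silica and air lung samples share no replicate number, the last number in their names.

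Libraries of a group were merged where fewer than 10% of genes with a mean count of at least 20 differed at p under 0.05 in a chi-square test on thinned counts with continuity correction. The 5 merged pairs had 8.08% to 9.48%, and the 46 other pairs 19.5% to 70.6%. This version of the test was chosen after seeing the data, with these pairs already known: 3 of the 5 passed at full depth, 4 thinned without correction and 1 at full depth without correction. The members and gene lists were chosen with earlier results of these data known. The genes named are all members, the 3 genes most correlated with each, and up to 4 genes of each list with the smallest adjusted p among those past the threshold. Each alternative changed 1 choice. The edgeR fits were also run on simulated data with the same spread for all genes, which does not cover genes as variable as Bpifa1 and Clca1.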

Additional observations from a re-analysis of the deposited data

Results flagged for a closer look

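Single libraries stood far from the rest of their group in 4 of 27 gene and group combinations examined. The limit used gives about 1 in 20 for independent, normally distributed values. These CPM were not on a log scale and the genes varied together (r = 0.92 for Muc5b and Scgb3a1), so that rate cannot be set against the 4 of 27. In air lungs at 1 day, library 02-07 had 11.4 CPM of Muc5b and 8.17 CPM of Scgb3a1, above the other 3 air libraries in both. Bpifa1 stood at 60.8 CPM in silica library 12 at 1 day and at 28.5 CPM in silica library 35 at 6 months.

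The silica effect differed between 6 months and 1 day, by the interaction test, for 4 genes. The difference was -5.80 for Clca1, 1.41 for Muc20, 1.06 for Scgb1a1 and 1.07 for Spdef on the log2 scale. Without late air library 20-25 that of Clca1 was -1.44, and without late air library 19-24 those of Muc20, Scgb1a1 and Spdef were 0.94, 0.69 and 0.81, none of them past the threshold.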

How the results depend on the processing

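The 6-month results rest on 2 air libraries. At 1 day Clca1 had 7 to 86 counts in silica and 0 to 8 in air libraries, and Bpifa1 12 to 994 in silica and 1 to 27 in air libraries. No paired analysis was possible because silica and air samples of a tissue share no animal numbers.

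With 1 library left out, the members called ranged from 2 to 3 at 1 day (4 with all), 0 to 3 at 6 months (3), 1 to 5 for the difference between times (4), 2 to 3 in silica lungs over time (2) and 1 to 4 in air lungs over time (2). Genes called over all ranged from 1188 to 2240 at 1 day (1836 with all), 56 to 4171 at 6 months (3189), 1642 to 5570 for the difference (4436), 766 to 2998 in silica lungs over time (1597) and 3643 to 8454 in air lungs over time (6877). The lowest 6-month count, 56, came without air 19-24.

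Members called at 1 day were 2 without the filter on low counts and 2 in 1 fit of all 4 lung groups. In air lungs over time they were 4 with DESeq2 and 6 with every library separate. Genes called at 1 day were 594 in 1 fit of all groups. At 6 months they were 6396 with every library separate, 5489 with pairs judged at full depth (chosen after seeing the data) and 6499 in 1 fit. In silica lungs over time they were 2599 with DESeq2. The cause was not tested.

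Signs that turned with 1 library left out belonged to log2 fold changes that did not pass with all libraries. The range ends that did pass are 1.59 for Agr2 at 6 months, -3.42 for Muc5b and 1.44 for Agr2 in the difference between times, and 2.78 for Muc5b, 2.40 for Bpifb1, 5.20 for Bpifa1, -1.63 for Agr2 and 3.16 for Scgb3a1 in air lungs over time. At 1 day Agr2 ranged from -0.02 to 0.30. At 6 months Muc5b ranged from -2.11 to 1.73, Clca1 from -3.16 to 2.13, Bpifa1 from -1.70 to 4.28, Agr2 from -0.26 to 1.59 and Scgb3a1 from -1.86 to 2.15. For the difference between times Muc5b ranged from -3.42 to 0.43, Bpifb1 from -0.45 to 2.07, Agr2 from -0.43 to 1.44 and Scgb3a1 from -3.48 to 0.91. In silica lungs over time Bpifa1 ranged from -1.97 to 0.20 and Scgb3a1 from -0.60 to 0.09. In air lungs over time Muc5b ranged from -1.08 to 2.78, Muc20 from -0.36 to 0.95, Bpifb1 from -0.13 to 2.40, Bpifa1 from -0.64 to 5.20, Agr2 from -1.63 to 0.25 and Scgb3a1 from -1.22 to 3.16. Relative to ciliated markers, Scgb1a1 at 1 day came to 0.04, from -0.20.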
